A study of Mus musculus with 32 samples.

Results

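The response of 8 genes of fatty acid oxidation and fasting was followed in 4 mouse organs after cisplatin: Ppara, Ppargc1a, Cpt1a, Acadm, Pdk4, Angptl4, Igfbp1 and Irs2. They were chosen by name with earlier results of these data known, so their counts beside the share of all genes are a description. All 8 were among the 25058 genes present in the files of every assay. Female C57BL/6J mice, aged 6 or 7 months, received cisplatin by intraperitoneal injection at 10 mg per kg at ZT1 (Zeitgeber time, hours after lights on), and control mice received an equal volume of saline. Organs were taken at ZT5, 4 h after injection by the treatment protocol, whereas the time tag of the samples reads 2 h. Kidney, liver, lung and spleen were each assayed by RNA-seq in 2 control and 2 cisplatin libraries, and by Damage-seq and XR-seq in 2 cisplatin libraries each, so damage and repair have no untreated counterpart here.

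In a fasted animal, fatty acids released from fat tissue become the main fuel of liver, kidney and muscle. The nuclear receptor encoded by Ppara binds fatty acids and turns on the genes that burn them, and the coactivator encoded by Ppargc1a raises mitochondrial capacity with it. Insulin, the signal of the fed state, holds several of these genes down, and glucagon and glucocorticoids raise them. Damage-seq marks platinum adducts still present in DNA. XR-seq sequences the short oligomers cut out around adducts by nucleotide excision repair, a process that in transcribed genes acts preferentially on the transcribed strand (TS) rather than on the non-transcribed strand (NTS).

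The 2 regulators are Ppara (chr15:85734983-85802819, plus strand) and Ppargc1a (chr5:51454250-51567726, minus strand). A pair of enzymes burn fatty acids: Cpt1a (chr19:3322334-3385733, plus strand) forms the acylcarnitines that enter mitochondria, and Acadm (chr3:153922357-153944632, minus strand) carries out the opening dehydrogenation of medium-chain acyl-CoA. Pdk4 (chr6:5483351-5496309, minus strand) encodes a kinase that shuts off pyruvate dehydrogenase and so spares glucose, and Angptl4 (chr17:33773750-33781830, minus strand) encodes a secreted inhibitor of lipoprotein lipase. Igfbp1 (chr11:7197782-7202546, plus strand) encodes a secreted binding protein of insulin-like growth factors, and Irs2 (chr8:10984681-11008458, minus strand) an adaptor of the insulin receptor. All positions are GENCODE M21 gene bounds on GRCm38. Within the bounds of Ppargc1a lie 4 annotated genes that share no exon bases with it, among them the antisense gene Gm42613. Another antisense gene, 9530052E02Rik, shares 162 exon bases with Irs2, whose RNA-seq reads cannot be told apart from it without strand. Where these antisense genes overlap Ppargc1a and Irs2, their TS is the NTS of the member. Their part in the damage and repair reads of each strand was not tested.

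Promoters are shown for the 3 genes that passed the test in kidney (Igfbp1, Ppara and Pdk4) and for Ppargc1a, which fell just short of it, to place them against known regulatory motifs. RefSeq sequence was found for 7 of the 8 genes (all but Angptl4). The bases shown are the longest stretch free of annotated exons within the 250 before the RefSeq start. Capitals mark matches on either strand to any of 5 motifs: the core nuclear receptor site AGGTCA, the core cAMP response site TGACG, the E-box CACGTG, the insulin response sequence CAAAACA and the TATA box TATAAA.
Igfbp1: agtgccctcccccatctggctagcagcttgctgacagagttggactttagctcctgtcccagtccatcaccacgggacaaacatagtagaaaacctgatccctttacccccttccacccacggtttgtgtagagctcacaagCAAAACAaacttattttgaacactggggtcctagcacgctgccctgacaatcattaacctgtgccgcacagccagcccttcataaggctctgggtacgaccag
Ppara: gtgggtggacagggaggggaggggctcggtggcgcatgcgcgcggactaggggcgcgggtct
Ppargc1a: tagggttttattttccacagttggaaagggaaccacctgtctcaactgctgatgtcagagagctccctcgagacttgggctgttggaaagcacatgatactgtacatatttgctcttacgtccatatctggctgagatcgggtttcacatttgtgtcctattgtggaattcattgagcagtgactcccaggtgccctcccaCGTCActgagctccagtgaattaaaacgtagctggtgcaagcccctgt
Pdk4: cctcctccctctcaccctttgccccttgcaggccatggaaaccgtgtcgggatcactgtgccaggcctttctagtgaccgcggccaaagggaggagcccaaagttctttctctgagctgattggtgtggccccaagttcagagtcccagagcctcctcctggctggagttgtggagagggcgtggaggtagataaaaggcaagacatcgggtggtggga

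These stretches are chr11:7197537-7197781 for Igfbp1, chr15:85735714-85735775 for Ppara, chr5:51567727-51567975 for Ppargc1a and chr6:5496310-5496528 for Pdk4, on GRCm38.p6 and written along the gene's own strand. The Igfbp1 stretch held 1 CAAAACA, also found in 5.56% of the 250-base windows of 32851 promoters, and the Ppargc1a stretch held 1 TGACG on the opposite strand, found in 17.8% of them. The Pdk4 stretch and the shorter Ppara stretch held none of the 5. The Ppara stretch has 62 bases and lies inside the GENCODE gene bounds, so it cannot be set against the 250-base windows. The remaining motifs occurred in 14.02% (AGGTCA), 6.02% (CACGTG) and 12.4% (TATAAA) of the windows. A match is a matter of letters in a window and was not tested for binding.

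Reads on genes ranged from 15619474 to 162270280 per library in RNA-seq, from 10658675 to 59779770 in XR-seq and from 1571167 to 6441367 in Damage-seq. The labelled organs were borne out by marker genes: hepatocyte, kidney tubule, lung epithelium and lymphocyte markers each had their highest summed level in their own organ. Each pair of control libraries in lung and in spleen differed by little more than read sampling (a dispersion index of 2.75 and 2.98, against 39.3 or more in the other RNA-seq pairs), so each was counted as 1 sample, and its spread was taken to be that of the cisplatin samples. The index was 7.26 to 32.7 in XR-seq pairs. It was 1.43 to 3.11 in the Damage-seq pairs, which had fewer reads and were kept as 2 samples each, so the Damage-seq p-values measure a spread close to that of read sampling. The submitters recorded that the arms of the lung and spleen RNA-seq samples had been corrected, and the present labels were used. Cdkn1a, a target of the damage sensor p53, was higher in both cisplatin libraries than in both control libraries of every organ, for example 386 and 464 against 113 and 111 CPM (counts scaled to library size) in lung.

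In control mice the 8 genes had distinct organ patterns, given here as RPKM (reads per kilobase of exon, scaled to library size with TMM factors) and tested in one fit over all RNA-seq samples. Many genes differ between organs: of 19100 tested, 36.5% did between kidney and liver, 36.2% between kidney and lung, 50.1% between kidney and spleen, 45.2% between liver and lung, 50.9% between liver and spleen and 28.4% between lung and spleen. Ppara was highest in liver (33.6 and 26.0 RPKM), followed by kidney (11.3 and 12.5), lung (2.47 and 2.03) and spleen (0.0308 and 0.0396), and each neighbouring pair in this order differed (adjusted p from 0.000135 to 0.0128, edgeR). Its coactivator Ppargc1a was instead highest in kidney, at 16.8 and 22.1 RPKM against 2.77 and 2.42 in liver, a log2 difference of 2.91 ± 0.34 (SE; adjusted p = 5.91e-05). Liver did not differ from lung for Ppargc1a (log2 difference 0.87 ± 0.41, adjusted p = 0.108), and without TMM scaling lung stood above liver.

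The oxidation enzymes were most abundant in kidney and liver. Acadm reached 437 and 363 RPKM in kidney, followed by liver (136 and 141), lung (57.2 and 59.3) and spleen (12.0 and 13.2), with every neighbouring pair distinct (adjusted p from 0.0022 to 0.0256). Cpt1a stood at 81.9 and 61.8 RPKM in liver and 41.9 and 65.2 in kidney, which did not differ (log2 difference 0.42 ± 0.32, adjusted p = 0.349) and changed order without TMM scaling. Lung and spleen had less Cpt1a, at 12.96 and 13.8 RPKM in lung and 10.7 and 11.5 in spleen, and did not differ from each other (adjusted p = 0.717).

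Pdk4 was the 1 gene with its highest control level in lung, at 36.1 and 37.8 RPKM. Kidney (12.97 and 13.3 RPKM) and liver (11.8 and 10.8) followed and did not differ (adjusted p = 0.616), and spleen was lowest at 3.52 and 3.55. Angptl4 and Irs2 showed no difference between any neighbouring organs (adjusted p of 0.224 or higher for Angptl4 and of 0.436 or higher for Irs2), and without TMM scaling Irs2 was lowest rather than highest in liver. Farther apart in the order, Angptl4 was higher in liver than in kidney, where kidney minus liver was -2.02 ± 0.61 on the log2 scale (adjusted p = 0.0229), and than in spleen (2.83 ± 0.83, adjusted p = 0.0155). Igfbp1 was high in liver (33.6 and 70.7 RPKM) and kidney (16.2 and 22.4) and close to absent in lung and spleen, where control libraries held between 2 and 16 reads.

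**Figure D1:**
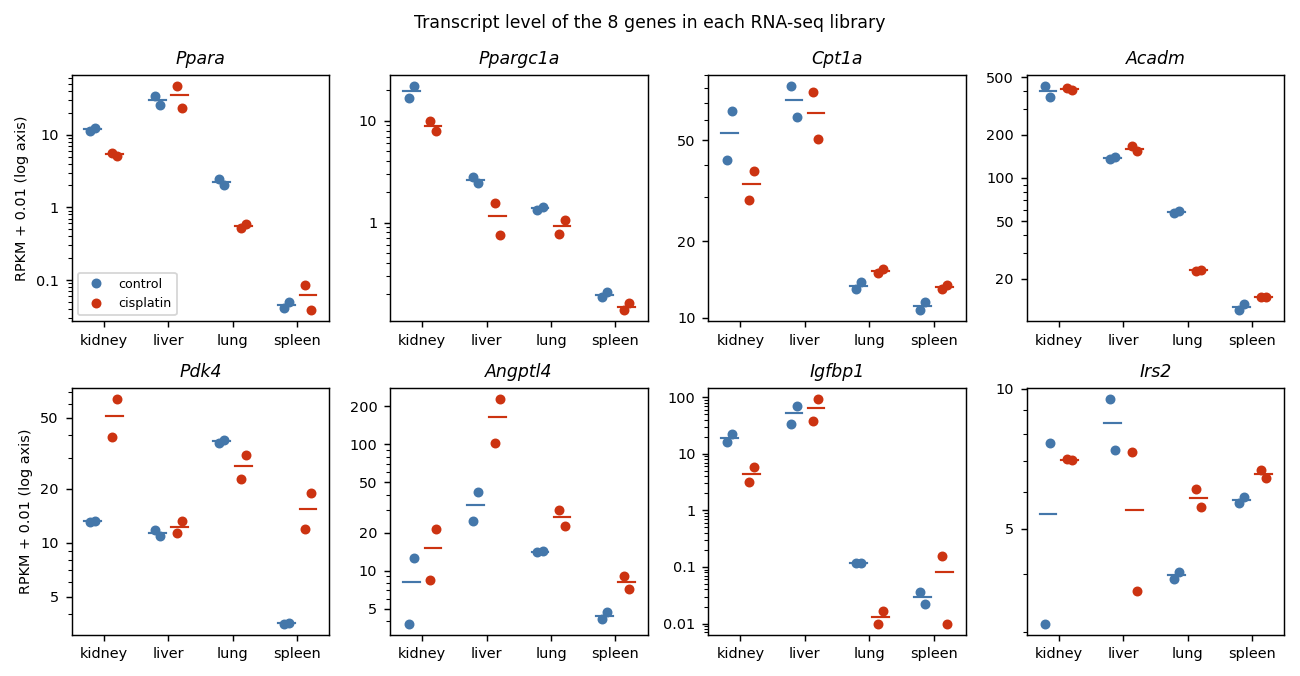
Transcript level of each gene in every RNA-seq library, as RPKM + 0.01 on a log axis with its own range per gene, by organ and arm (points are libraries, bars the mean of each arm). Pdk4 in kidney and spleen lies higher in both cisplatin libraries, Ppara and Acadm in lung lie lower, and Angptl4 in liver moves from 24.8 and 41.9 to 103 and 229 RPKM.

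In kidney, cisplatin was compared with control to ask how the genes responded, with 0.4 on the log2 scale as the smallest change of interest. Of the 8 genes 3 passed (adjusted p under 0.05, edgeR), where 5.05% of the 15471 genes tested did. Pdk4 rose, as did 2.4% of genes, and Ppara and Igfbp1 fell, as did 2.65%. Both cisplatin libraries lay below both control libraries for 4 of the 8 genes and above them for 1, a pattern seen below in 28.5% and above in 27.7% of genes tested. Pdk4, the brake on glucose oxidation, went from 12.97 and 13.3 RPKM in control to 39.0 and 63.7 with cisplatin. All control values lay below all cisplatin values, and the log2 difference was 1.96 ± 0.26 (SE, adjusted p = 0.0189).

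Ppara stood at 11.3 and 12.5 RPKM in control kidneys and at 5.64 and 5.13 after cisplatin. The groups did not overlap, and the log2 difference was -1.15 ± 0.18 (adjusted p = 0.0376). Ppargc1a fell short of the threshold with nearly the same size of difference: 16.8 and 22.1 RPKM in control, 9.84 and 7.87 with cisplatin, log2 difference -1.13 ± 0.21 and adjusted p = 0.0571 (2.47e-05 to 0.248 over 11 alternatives). Igfbp1, which insulin keeps low in the fed state, stood at 16.2 and 22.4 RPKM in control against 3.13 and 5.77 with cisplatin. Its log2 difference of -2.09 ± 0.34 was the largest fall among the members in kidney (adjusted p = 0.0301). In the same cisplatin kidneys 4 of 6 hepatocyte markers were lower (summed 567 to 776 CPM in control and 476 to 510 with cisplatin). Most of that sum was Apob, whose arms overlapped (410 and 524 against 412 and 376 CPM). Also lower were 4 of 6 lymphocyte markers (11.4 to 17.7 against 8.65 to 9.26). Of kidney's own cells, 3 of 6 tubule markers were lower (13935 to 17851 against 11474 to 13540). No marker of these lists was higher. In other lists 2 of 5 cardiac muscle, 1 of 6 lung epithelium and 1 of 6 pancreatic acinar markers were higher and none lower. Skeletal muscle had 1 of 5 markers on each side. The part of these cell types in the kidney falls was not tested.

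The other kidney genes did not pass. Cpt1a was 41.9 and 65.2 RPKM in control and 29.0 and 37.9 with cisplatin, without overlap (log2 difference -0.68 ± 0.25, adjusted p = 0.346, 0.0234 to 1 over 11 alternatives). Acadm overlapped between the groups, with a log2 difference of 0.048 ± 0.18 beside its 437 and 363 RPKM in control. The arms also overlapped for Angptl4 and Irs2. Angptl4 was 3.80 and 12.6 RPKM in control and 8.49 and 21.5 with cisplatin (log2 difference 0.88 ± 0.61, adjusted p = 0.618, 0.000575 to 1 over 11 alternatives), and Irs2 was 3.12 and 7.65 in control and 7.05 and 7.01 with cisplatin. The summed adipocyte markers of kidney varied in the same libraries (38.2 and 216 CPM in control, 31.6 and 155 with cisplatin, none of the 6 markers separating the arms), and their part in the Angptl4 spread was not tested.

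The kidney calls of Ppara and Igfbp1 depended on the fit, and leaving out a cisplatin library also lost calls. That held for either library for Ppara and for library 1 for Igfbp1, with 1 cisplatin sample left. Without cisplatin library 1 or 2 the log2 difference was -1.24 and -1.07 for Ppara, and -1.76 and -2.61 for Igfbp1. Without control library 1 or 2 it was -1.21 and -1.09 for Ppara, and -2.29 and -1.85 for Igfbp1. In one fit over all organs the adjusted p of Ppara and Igfbp1 was 0.195 and 0.178. Over 11 alternatives the adjusted p ranged from 1.84e-05 to 0.204 for Ppara and from 1.7e-09 to 0.178 for Igfbp1. That of Pdk4 ranged from 2.74e-11 to 0.0272, below 0.05 in each.

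In liver the gene with the largest difference was Angptl4, but no member passed the test. Angptl4, the lipoprotein lipase inhibitor, was 24.8 and 41.9 RPKM in control and 103 and 229 with cisplatin. Both cisplatin livers exceeded both controls, and the log2 difference was 2.33 ± 0.53 (adjusted p = 0.191). No gene of the 13868 tested passed in liver (0%) by edgeR, whereas 1287 (9.28%) had an unadjusted p under 0.05 and DESeq2 called 189 (0.964%). Among the 8 members, 2 had an unadjusted p under 0.05 and DESeq2 called 1, Angptl4. Its adjusted p ranged from 3.96e-06 to 0.791 over 11 alternatives, and it was 7.59e-05 without cisplatin library 1 and 0.0452 without cisplatin library 2.

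The summed adipocyte markers, some of which are also expressed in fatty liver, were also higher in the cisplatin livers, at 18.5 and 123 CPM against 2.36 and 2.66 in control, with 4 of the 6 markers above both controls. Most of that sum was Cidec, a lipid droplet gene (2.21 and 2.16 against 15.7 and 122 CPM). Adipoq was at or below 0.793 CPM in every liver library and at 0 in control library 1. All 6 lung epithelium markers were higher too (64.3 to 66.6 CPM in control and 93.8 to 118 with cisplatin). Of 6 hepatocyte markers 2 were lower and none higher, and of 6 lymphocyte markers 2 were lower and 1 higher. Of 4 endothelium markers 1 was lower and none higher. The 6 kidney tubule markers, none of which separated the arms, summed to 11.8 and 3.54 CPM in control and 3.47 and 43.8 with cisplatin. In the brown adipocyte, cardiac muscle and skeletal muscle lists 1 marker each was higher and none lower. The part of these cell types in the Angptl4 level was not tested. Ppargc1a was 2.77 and 2.42 RPKM in control livers and 1.56 and 0.742 with cisplatin, without overlap but not past the test (log2 difference -1.15 ± 0.44, adjusted p = 0.534). It was 0.00687 without cisplatin library 1, within a range from 0.00687 to 1 over the alternatives.

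Of the 8 genes 2 lay wholly above control in liver (Angptl4 and Acadm) and 2 wholly below (Ppargc1a and Irs2), as did 18.4% and 23.7% of genes tested. Ppara was 33.6 and 26.0 RPKM in control against 47.0 and 22.9 with cisplatin, and Cpt1a was 81.9 and 61.8 against 77.4 and 50.6. In both, the arms overlapped. Acadm (136 and 141 against 167 and 153 RPKM), Pdk4 (11.8 and 10.8 against 11.4 and 13.2) and Igfbp1 (33.6 and 70.7 against 37.2 and 92.6) had log2 differences between 0.14 and 0.33 with SEs of 0.31 or more. Irs2 was 9.50 and 7.39 RPKM in control and 7.29 and 3.67 with cisplatin (log2 difference -0.60 ± 0.40, adjusted p = 0.861).

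In lung, 2 of the 8 genes passed, where 2.09% of 18210 genes did, and both fell, as did 1.96%. Ppara went from 2.47 and 2.03 RPKM in the control libraries to 0.508 and 0.581 with cisplatin (log2 difference -1.995 ± 0.28, adjusted p = 0.0323). Acadm went from 57.2 and 59.3 to 22.7 and 23.0 RPKM, a log2 difference of -1.38 ± 0.15 (adjusted p = 0.0225). In both, all cisplatin values lay below all control values. In one fit over all organs neither passed, with adjusted p of 0.112 and 0.234, the highest of 10 alternatives with a p. The lowest were 0.00104 and 0.000146.

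Fat cell markers moved in the same direction as Ppara and Acadm in lung. The 3 brown adipocyte markers summed to 348 and 350 CPM in the control lung libraries and to 22.5 and 5.65 with cisplatin, and the 6 adipocyte markers to 501 and 512 against 123 and 52.1. All 9 were lower in both cisplatin libraries, none was at 0, and Ucp1, the uncoupling protein of brown fat, went from 236 and 235 CPM to 14.3 and 0.429. The 6 lymphocyte markers were also all lower (215 and 230 against 62.5 and 47.4 CPM), and the 5 cardiac muscle markers were all higher (119 and 122 against 272 and 197). Of 6 hepatocyte markers 5 were lower (54.2 to 75.5 CPM in control, 3.96 to 42.1 with cisplatin) and none higher. Of 6 kidney tubule markers 4 were lower (60.8 to 63.2 against 38.8 to 48.9 CPM) and none higher. Of 6 lung epithelium markers 4 were higher and none lower. The part of these cell types in the lung results was not tested, and in such bulk RNA fewer cells of a type cannot be told apart from less RNA per cell.

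The other lung genes did not pass. Pdk4 was 36.1 and 37.8 RPKM in control and 22.6 and 30.96 with cisplatin (log2 difference -0.50 ± 0.21, adjusted p = 0.680), and Ppargc1a was 1.32 and 1.42 against 0.762 and 1.05 (adjusted p = 0.623). Angptl4 lay higher with cisplatin, at 30.3 and 22.6 RPKM against 13.9 and 14.3, with an adjusted p of 0.237. Irs2 (3.88 and 4.03 against 6.09 and 5.56 RPKM) and Cpt1a (12.96 and 13.8 against 15.0 and 15.6) also lay higher without passing. Igfbp1 held 6 and 16 reads in control and 0 and 2 with cisplatin, and its fitted log2 difference of -4.39 ± 1.23 did not pass. Control over cisplatin gave a ratio of 22.1, with an exact 95% interval from 5.43 to 194 that covers counting error only. Hepatocyte and kidney tubule markers were lower in the same libraries, as given above, and their part in the Igfbp1 reads was not tested. With 3 genes wholly above and 5 wholly below control, all 8 genes separated the lung arms, and of genes tested 36% lay wholly above and 31% wholly below control.

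In spleen no member passed among the 7 tested, where 0.181% of 17686 genes did. At an unadjusted p under 0.05 there were 2 members (4.34% of genes), and DESeq2 called 1, Pdk4 (0.38% of genes). Pdk4 was 3.52 and 3.55 RPKM in control and 12.0 and 19.0 with cisplatin. The control pair counted as 1 sample, and the log2 difference was 2.13 ± 0.32. Its adjusted p was 0.402 by edgeR and ranged from 8.2e-06 to 0.742 over 10 alternatives. Angptl4 was 4.15 and 4.65 RPKM against 9.02 and 7.19 with cisplatin (log2 difference 0.86 ± 0.22, adjusted p = 0.989). The log2 differences of Cpt1a, Acadm and Irs2 were 0.24, 0.22 and 0.18, and Ppara and Ppargc1a were at or below 0.197 RPKM in every spleen library. With 5 genes wholly above and 1 wholly below control, against 30.9% and 29.2% of genes tested, the arms overlapped for 2.

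Some marker lists of other organs also stood higher in the cisplatin spleens, not all of them in both libraries. The 6 pancreatic acinar markers summed to 12.3 and 12.0 CPM in control and 1240 and 891 with cisplatin. Hepatocyte markers were at 292 CPM in cisplatin library 1 and 0.145 in library 2, against 25.2 and 9.82 in control. Adipocyte markers were at 106 and 7.04 CPM, against 7.39 and 7.55 in control, and all 6 lung epithelium markers were higher (34.1 to 34.5 against 19.2 to 20.5 CPM). The part of these cell types in the spleen results was not tested.

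**Figure D2:**
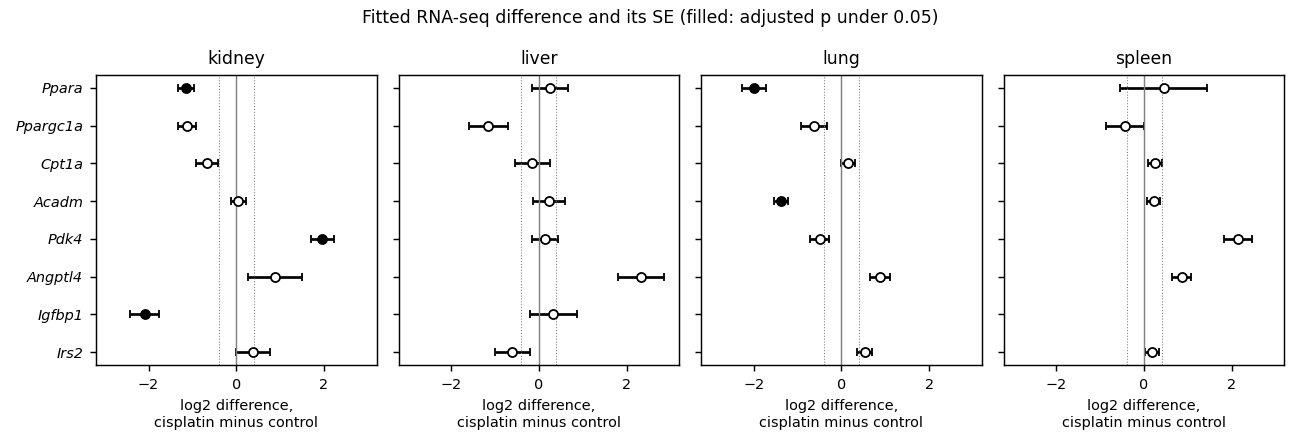
Fitted log2 difference of cisplatin minus control for each gene in each organ, with its SE as bars. Filled points passed the test (adjusted p under 0.05), dotted lines mark ±0.4, and Igfbp1 in lung and spleen is not drawn because it had few reads. Filled points are Ppara, Pdk4 and Igfbp1 in kidney and Ppara and Acadm in lung.

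**Figure D3:**
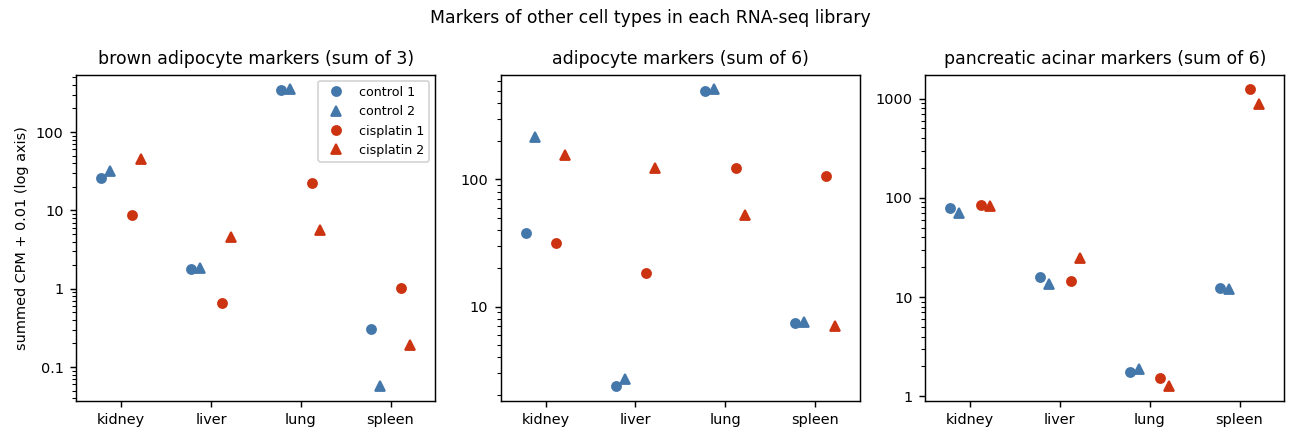
Summed CPM + 0.01 (log axis) of 3 marker lists in each RNA-seq library, by organ, with colour for the arm and shape for the replicate number. Brown adipocyte markers sit at 348 and 350 CPM in control lungs and 22.5 and 5.65 with cisplatin, and pancreatic acinar markers in spleen at 12.3 and 12.0 against 1240 and 891 CPM.

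Whether the response differed between organs was tested as an interaction over 14 samples. None of the 8 genes passed by edgeR, where 0.209% of 19100 genes did, although 4 had an unadjusted p under 0.05 and DESeq2 called 3. Pdk4 was nearest, at an adjusted p of 0.0805: its log2 response in lung was below that in kidney by 2.47 ± 0.45 (adjusted p = 0.0840), and in liver by 1.85 ± 0.42 (adjusted p = 0.191), whereas spleen and kidney differed by 0.11 ± 0.46. For Ppara, lung minus liver gave -2.23 ± 0.55 (adjusted p = 0.377). No member passed in these pairs, where 0.12% of genes did for lung minus kidney, 0.0733% for liver minus kidney, 0.304% for spleen minus kidney and 0% for lung minus liver. A gene that passed in kidney or lung was therefore not shown to respond differently there than elsewhere.

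The genes around these 8 were read from 8 lists of the pathway, 140 further genes in all, likewise chosen with earlier results of these data known. In kidney 5 of 136 tested rose and 5 fell, beside 2.4% and 2.65% of all genes. Among the nuclear receptors, coactivators and fasting factors (26 tested, 3 up, 3 down, median log2 difference -0.12 against -0.0030 over all genes), Cebpb, a transcription factor induced in fasting and stress, rose the most (2.36 ± 0.25, adjusted p = 0.0127). Esrrg, an orphan receptor that drives mitochondrial genes together with the product of Ppargc1a, fell the most (-2.52 ± 0.18, adjusted p = 0.00349). In insulin and IGF signalling (23 tested, 1 up, 2 down), Angptl8 rose by 2.26 ± 0.24 and the receptor gene Igf1r changed by -1.63 ± 0.25.

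Of the kidney ketone body genes (6 tested) only the monocarboxylate carrier Slc16a1 passed, with a rise of 1.08 ± 0.18 (adjusted p = 0.0492). None of the tested genes of fatty acid uptake (17), mitochondrial beta-oxidation (18), peroxisomal oxidation (14), other PPAR targets (18) or fatty acid synthesis (14) passed in kidney. The median log2 difference of mitochondrial beta-oxidation there was -0.023 and that of fatty acid synthesis -0.51, with 13 of its 14 genes below 0, against 50.2% of all genes.

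In lung 14 of 136 pathway genes fell, beside 1.96% of all genes, and none rose. Of the 14 fatty acid synthesis genes 9 fell, with a list median of -1.98 against 0.028 over all genes, and the largest fall was that of Elovl6, a fatty acid elongase (-4.18 ± 0.58, adjusted p = 0.0271). In mitochondrial beta-oxidation 1 of 18 fell, Hadhb, a subunit of the trifunctional protein (-1.60 ± 0.16, adjusted p = 0.0190), and 17 of the 18 had a log2 difference below 0, against 47.5% of all genes. Slc27a2, a fatty acid transporter, and Ppargc1b, a relative of Ppargc1a, were the largest falls of their lists (-2.15 ± 0.25 and -2.44 ± 0.40). Beside these counts stand the 9 lower fat cell markers of the same libraries, whose part was not tested.

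In liver none of 134 and in spleen none of 137 pathway genes passed. The other PPAR target genes had a median log2 difference of 0.87 in liver, with 1 of 17 below 0 against 47.7% of all genes, and 0.87 in spleen, with 0 of 18 below 0 against 48.3%. Several of that list are also lipid droplet genes of fat cells, and the adipocyte sums of both organs are given above. Mitochondrial beta-oxidation was near 0 in both (0.043 in liver and 0.13 in spleen).

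Repair was read from XR-seq as CPM per 1000 GG of the strand. TS reads differed between organs for all 8 genes, where 61.6% of 19736 genes did. Ppargc1a had the widest range of the well-counted genes: 28.9 and 24.8 in liver, 19.5 and 20.2 in kidney, 2.32 and 2.01 in lung and 2.56 and 2.97 in spleen. Liver and kidney stood above the mean of the other organs by 2.45 ± 0.11 and 1.86 ± 0.11 on the log2 scale (adjusted p = 5.94e-09 and 1.38e-07). Its transcript after cisplatin was 1.56 and 0.742 RPKM in liver and 9.84 and 7.87 in kidney, so the order of the 2 organs was not the same in both assays.

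Kidney (20.3 and 18.1) and liver (21.1 and 22.5) led for Ppara repair on the TS, followed by lung (13.3 and 10.2) and spleen (3.19 and 4.12). Pdk4 was highest in kidney, at 63.2 and 52.0, followed by liver (23.6 and 20.2), lung (19.3 and 18.0) and spleen (5.46 and 12.2), a kidney excess of 1.89 ± 0.23 over the other organs (adjusted p = 5.51e-05). Igfbp1 was repaired in liver (32.6 and 43.1) and kidney (19.8 and 37.3), with 4 to 8 TS reads per library in lung and spleen. Kidney was above the mean of the others for 6 of the 8 genes and below it for none, where 23.8% of genes were above and 12.4% below.

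Cpt1a and Acadm, the oxidation enzymes, had their lowest repair in liver. Together with Irs2 they were the 3 members below the mean of the other organs there (32.4% of genes), while Ppara, Ppargc1a and Igfbp1 were the 3 above it (20.4%). Cpt1a repair on the TS was 52.1 and 52.6 in spleen, 50.6 and 54.7 in lung, 45.9 and 47.9 in kidney and 22.8 and 29.0 in liver, where the liver deficit was -0.97 ± 0.10 (adjusted p = 6.93e-06). Acadm was 44.3 and 43.5 in spleen, 35.1 and 37.2 in lung, 24.2 and 33.9 in kidney and 18.4 and 16.7 in liver (-1.03 ± 0.16, adjusted p = 0.000171). These are shares of each library's reads on genes, so they do not compare the total amount of repair between organs. Irs2 was also lowest in liver and lung (30.8 and 30.5, and 31.7 and 26.5) and highest in kidney (72.0 and 87.0), and Angptl4 ranged from 16.96 to 50.1 over the 8 libraries.

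NTS repair was low and differed between organs for 2 genes, Ppara and Ppargc1a (adjusted p = 0.000217 and 0.00236), where 32.3% of 19637 genes did. Ppara on the NTS was 4.58 and 4.71 in liver, 2.16 and 2.19 in kidney, 0.337 and 0.533 in lung and 0.132 and 0.466 in spleen. Liver was highest and did not overlap with any other organ. Ppargc1a on the NTS was between 1.24 and 1.56 in liver and kidney and between 0.131 and 0.332 in lung and spleen.

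**Figure D4:**
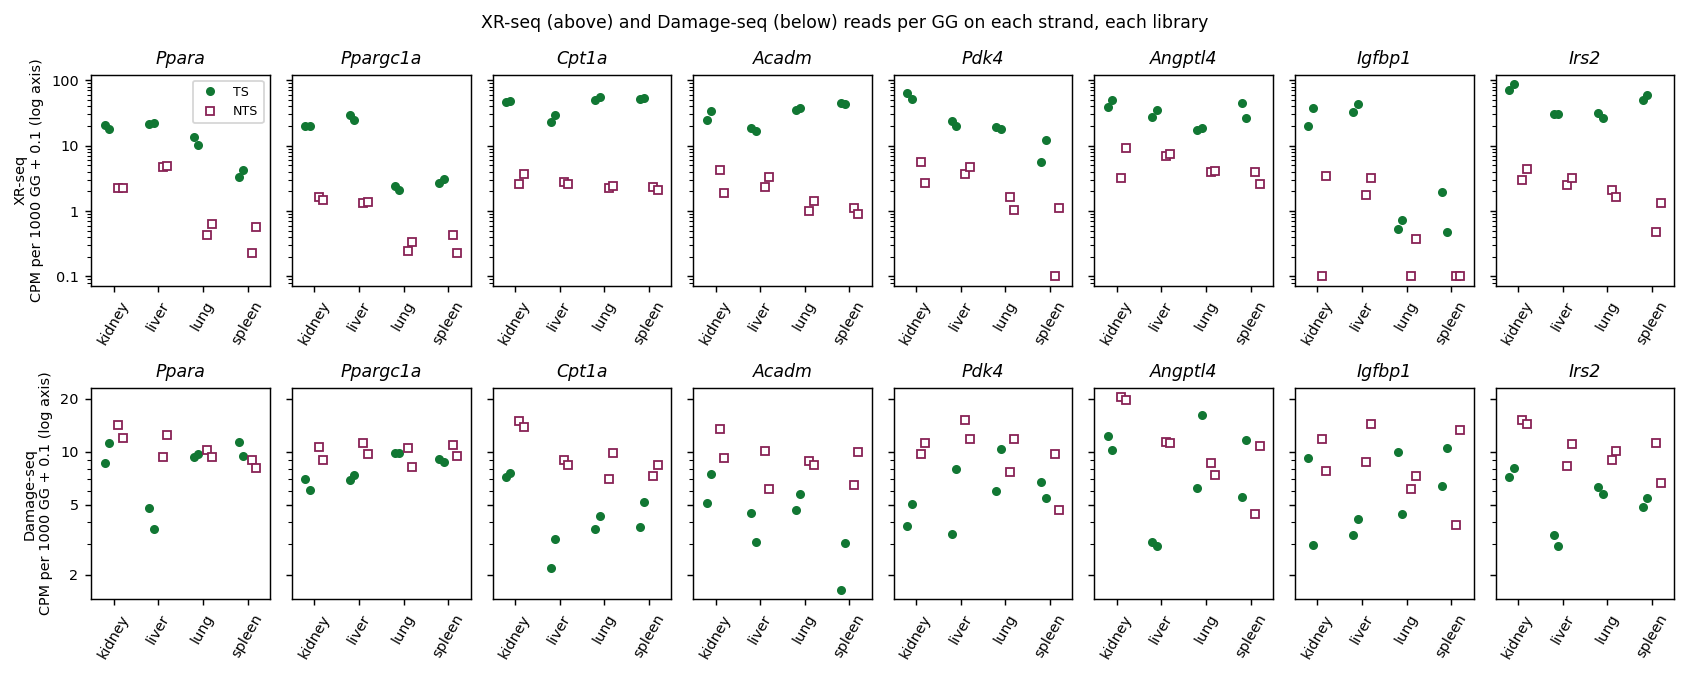
XR-seq (upper row) and Damage-seq (lower row) reads of each gene as CPM per 1000 GG + 0.1 on a log axis, for the TS (filled circles) and NTS (open squares) of every library in 4 organs. In XR-seq the TS lies above the NTS throughout, and in Damage-seq the TS of Ppara falls to 4.71 and 3.54 in liver.

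Remaining damage, from Damage-seq in the same unit, differed between organs on the TS for 5 of the 8 genes (Ppara, Ppargc1a, Cpt1a, Angptl4 and Irs2), where 33.9% of 19797 genes did. On both strands the values are shares of each library's reads on genes, so they do not compare the total amount of damage between organs. Ppara on the TS was 4.71 and 3.54 in liver, against 8.51 and 11.2 in kidney, 9.29 and 9.68 in lung and 11.3 and 9.41 in spleen. The liver values lay below all others (-1.22 ± 0.18 against the mean of the other organs, adjusted p = 1.83e-07). Angptl4 on the TS was 2.97 and 2.81 in liver against 5.46 to 16.2 elsewhere (-1.82 ± 0.47, adjusted p = 0.00337), from only 7 and 4 liver reads.

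Cpt1a on the TS was highest in kidney, at 7.15 and 7.49, and lower in spleen (3.66 and 5.10), lung (3.57 and 4.20) and liver (2.08 and 3.08). Kidney exceeded the other organs by 1.06 ± 0.17 and liver fell below them by 1.01 ± 0.22 on the log2 scale (adjusted p = 4.79e-07 and 0.00046). Irs2 was likewise low in liver, at 3.25 and 2.82 against 4.78 to 7.97 elsewhere (-0.99 ± 0.31, adjusted p = 0.0198). In all, 4 of the 8 genes were lower in liver on the TS (14.3% of genes) and 4 were higher in kidney (25.6%), Ppara, Cpt1a, Acadm and Irs2. Ppargc1a was the 1 gene lower in kidney (-0.38 ± 0.14, adjusted p = 0.0243), as were 6.85% of genes, with a narrow range from 6.02 in kidney to 9.76 in lung.

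On the NTS 4 of the 8 genes differed between organs (Ppara, Cpt1a, Angptl4 and Irs2), where 18.9% of 20220 genes did. All 4 were higher in kidney than in the mean of the other organs, as were 19.5% of genes. Angptl4 was 20.3 and 19.6 in kidney against 4.32 to 11.4 elsewhere, and Cpt1a was 14.9 and 13.8 against 6.90 to 9.77. Acadm, Pdk4 and Igfbp1 passed the test between all organs on neither strand, and with 2 to 26 reads per strand and library for Igfbp1 a moderate difference was not detectable at this depth.

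Within a library, the TS and NTS of a gene can be compared per GG. In XR-seq all 8 genes had more TS than NTS reads over the mean of the organs, where 64.9% of 20674 genes did. The ratio was 10.9 for Ppara (log2 3.45 ± 0.20), 14.6 for Ppargc1a (3.87 ± 0.21) and 17.6 for Cpt1a (4.13 ± 0.11), and the median gene had a log2 ratio of 2.50. The lowest of the 8 was Angptl4 (2.71 ± 0.23) and the highest with reads on both strands in every library was Irs2 (4.54 ± 0.18).

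The XR-seq ratio differed between organs for 4 of the 8 genes, where 21.1% of genes did: Ppara, Cpt1a, Acadm and Irs2. Liver was the lowest organ in each. For Acadm the ratio of TS to NTS per GG was 8.39 and 5.24 in liver, 5.90 and 18.7 in kidney, 39.1 and 28.4 in lung and 43.4 and 55.4 in spleen. For Ppara it was 4.61 and 4.77 in liver, 9.39 and 8.28 in kidney, 39.6 and 19.1 in lung and 24.2 and 8.84 in spleen, with the higher NTS of liver given above. Cpt1a lay between 8.65 and 11.5 in liver and between 13.4 and 26.8 elsewhere.

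In Damage-seq the TS held less than the NTS over the mean of the organs for 7 of the 8 genes, all but Igfbp1, where 42% of 20831 genes did. Cpt1a and Acadm had the largest deficits (log2 ratio -1.17 ± 0.10 and -1.14 ± 0.18), and Ppargc1a the smallest of the 7 (-0.32 ± 0.08). In liver and in kidney 7 and 7 genes had a TS deficit, in lung 3 and in spleen 2, where 32.7%, 20.9%, 27.1% and 13.1% of genes did.

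The Damage-seq ratio differed between organs for Ppara, Ppargc1a and Angptl4, 3 of the 8, where 10.3% of genes did. Ppara gave a TS to NTS ratio of 0.508 and 0.286 in liver, 0.603 and 0.942 in kidney, 0.919 and 1.05 in lung and 1.26 and 1.17 in spleen (adjusted p = 1.21e-05). The TS share of its liver reads was 31.9% (95% Wilson interval 26.3% to 38.1%) and 20.9% (15.3% to 27.7%), and in spleen 53.8% (45.3% to 62.2%) and 51.9% (44.2% to 59.6%), intervals for counting error only. Both liver libraries lay below all libraries of the other organs. Ppargc1a had a ratio of 0.611 and 0.759 in liver and 0.654 and 0.674 in kidney, below the 0.941 and 1.19 of lung and the 0.832 and 0.930 of spleen.

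**Figure D5:**
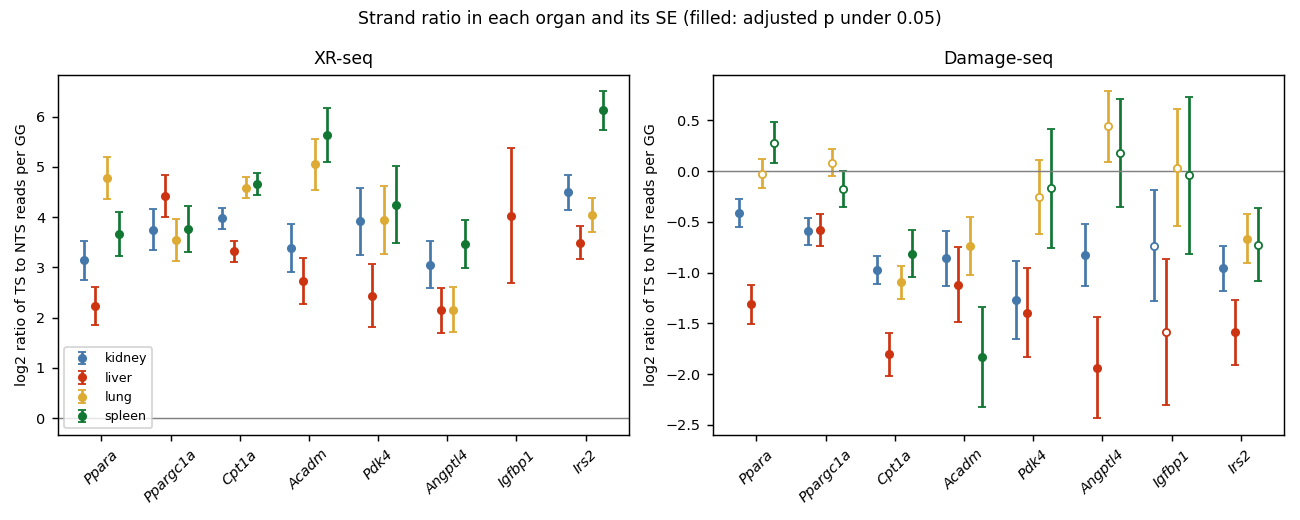
TS over NTS, per GG and on the log2 scale, for each gene and organ in XR-seq (left) and Damage-seq (right), with its SE, filled where the adjusted p was under 0.05. Igfbp1 in XR-seq is drawn for liver only, since NTS reads were at 0 in libraries of the other organs. Ppara in Damage-seq runs from -1.31 in liver to 0.28 in spleen.

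For each gene, the 3 genes with the most similar RNA-seq pattern were taken by Pearson's r of log2(RPKM + 1) over the 14 samples among 17426 genes, as a description that mostly follows organ. Ppara was closest to Pank1 (r = 0.984), Akap1 and Etfdh, and Acadm to Dld (r = 0.993), Ghitm and Sugct. Ppargc1a was closest to Amot (r = 0.988), Myo6 and Gng12, Cpt1a to Dcaf8 (r = 0.987), Dhtkd1 and Hdac11, and Igfbp1 to Actr8 (r = 0.989), Aars2 and Slc35d1. Angptl4 was closest to Trib3 (r = 0.974), 1810055G02Rik and Tsku. The lowest correlations with the closest gene were those of Pdk4, closest to Hbegf (r = 0.863), Rasd1 and Fosl2, and of Irs2, closest to Prpf8 (r = 0.776), Taf6 and Ncstn.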

How the data were processed

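The deposited files hold whole-number counts of reads per gene, which the authors made without normalization. By the study's methods, adapter reads were handled with cutadapt, BWA aligned damage and repair reads to mm10, and Picard removed duplicates. Only reads with GG at the adduct position were kept and split into TS and NTS, so reads at other adducts are not represented. RNA-seq reads were aligned with STAR and counted with featureCounts from a library kit without strand. Of 32 libraries all were used. Each of 16 Damage-seq and XR-seq files held 1 line without identifier, which was dropped. Genes were placed by GENCODE M21 on GRCm38, and GG were counted between gene bounds.

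RNA-seq counts were tested in edgeR 4.0.16 (R 4.3.3) with TMM scaling, the default low-count filter, the quasi-likelihood fit and glmTreat against a log2 fold change of 0.4. Interaction and control levels were tested against 0. XR-seq and Damage-seq fits used reads on both strands as library size, and the strand ratio had library as a block and a GG offset for genes with at least 10 GG per strand. Calls used a Benjamini-Hochberg adjusted p under 0.05 over all genes tested. Alternatives included RLE, no filter, DESeq2 1.42.0, replicates left out, a replicate block and one fit over all organs. Scaling by library size alone was added after seeing the data. The fits were tested on simulated data. RNA-seq control pairs with a dispersion index (chi-square over its degrees of freedom) of 3 or below were summed. All 8 members are named, with their 3 most alike genes and, from each pathway list and organ, the called genes with the largest rise and fall. Members, lists and markers were chosen with earlier results of these data known. The study describes 2 biological replicates, and where a pair shares an animal or library the p-values measure technical spread. Calculations used Python 3.11.15. Intervals assume independent reads.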

Additional observations from a re-analysis of the deposited data

Results flagged for a closer look

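The TS to NTS ratio of 7 gene and assay pairs differed between organs by a test of that difference (edgeR, Benjamini-Hochberg adjusted over all genes). In XR-seq these were Ppara (adjusted p = 0.0405), Cpt1a (0.0237), Acadm (0.0341) and Irs2 (0.0209), each with its lowest log2 ratio in liver: 2.23 ± 0.37 for Ppara, 3.32 ± 0.20 for Cpt1a, 2.73 ± 0.46 for Acadm and 3.49 ± 0.33 for Irs2. Their highest ratios were 4.78 ± 0.42 in lung for Ppara and, in spleen, 4.66 ± 0.22 for Cpt1a, 5.63 ± 0.54 for Acadm and 6.12 ± 0.39 for Irs2. The spleen ratio of Irs2 rests on 7 and 72 NTS reads.

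In Damage-seq the ratio differed between organs for Ppara (adjusted p = 1.21e-05), Ppargc1a (0.0165) and Angptl4 (0.0122). Ppara had log2 ratios of -1.31 ± 0.19 in liver and -0.41 ± 0.14 in kidney, and 0.28 ± 0.20 in spleen. Ppargc1a had -0.58 ± 0.16 in liver, -0.59 ± 0.13 in kidney and 0.08 ± 0.13 in lung. Angptl4 had -1.93 ± 0.50 in liver and 0.44 ± 0.35 in lung, where 1 library gave a ratio of 0.711 and the other 2.21.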

How the results depend on the processing

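The limits are few replicates, 1 counted control sample in lung and spleen, and few Damage-seq reads on short genes. Leaving out a lung or spleen cisplatin library leaves no residual degrees of freedom, so those settings gave differences without a test. Where a setting changed a call below, the cause was not tested. The numbers of members and genes called are given first, as members and then all genes. In kidney (3 and 782) one fit over all organs called 1 member, no low-count filter 1896 genes and a test against 0 1711 genes, and leaving out 1 library gave 1 (without cisplatin library 1) to 6 members (without control library 2; 5 without control library 1) and 123 to 2005 genes. In liver (0 and 0) no filter called 1 and 155, DESeq2 1 and 189, one fit over all organs 518 genes, and leaving out 1 library 0 to 3 (without cisplatin library 1) and 22 to 1840. In lung (2 and 381) one fit over all organs called 0 and 70, no filter 1089 genes, a test against 0 804 genes and each library counted as a replicate 1606 genes. In spleen (0 and 32) no filter called 1 and 58, DESeq2 1 and 85, and each library counted as a replicate 62 genes. For the interaction (0 and 40) no filter called 3 and 344, each library counted as a replicate 3 and 621, DESeq2 3 and 736, RLE 24 genes, and leaving out 1 library gave 8 to 210 genes. In XR-seq NTS (2 and 6342) leaving out 1 library gave 2 to 5 members (4 or 5 without either kidney library, 4 without spleen library 2) and 4306 to 10466 genes. In Damage-seq TS (5 and 6720) DESeq2 called 3 and 3111, and leaving out 1 library 3 (without liver library 1) to 5 members. In Damage-seq NTS (4 and 3830) TMM called 2 members, DESeq2 1 and 1347, and leaving out 1 library 1 (without kidney library 1) to 4 members (2 without spleen library 2) and 1205 to 4245 genes.

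The sample labels do not say whether libraries of the same replicate number share an animal or a batch. The paper adjusted for batch as a known covariate, and its methods do not list the batches. With the replicate numbers as a block, 6 members (Ppargc1a, Cpt1a and Angptl4 beside Pdk4, Ppara and Igfbp1) and 3182 genes were called in kidney. The same block called 2 and 1015 in liver, 1914 genes in lung, 1 and 172 in spleen, and 6 and 1780 for the interaction. The pairing check gave a correlation of deviations of 0.309 (kidney), 0.258 (liver), 0.0565 (lung) and 0.268 (spleen) over 18430 genes.

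Some small differences changed sign. Without TMM scaling Acadm in kidney was at -0.018, Cpt1a in control kidney against liver at 0.42, Ppargc1a in control liver against lung at -0.25 and Irs2 in control liver against spleen at -0.56. Irs2 in control kidney against spleen was at 0.0024 with RLE and 0.00017 with DESeq2. Acadm damage on the TS of liver was at 0.045 with TMM. Without the GG offset the Damage-seq strand ratio of Igfbp1 in lung was at -0.14 and of Pdk4 in spleen at 0.0046, and with DESeq2 that of Igfbp1 in spleen was at 0.033. Leaving out 1 library gave, for the log2 difference in kidney, -0.10 to 0.20 for Acadm and -0.11 to 1.15 for Irs2, and in liver -0.38 to 0.67 for Ppara, -0.50 to 0.12 for Cpt1a and -0.49 to 0.97 for Igfbp1. Ppara in spleen ran from -0.37 to 1.05. Control kidney against lung ran from -0.39 to 0.91 for Irs2, and control kidney against spleen from -0.30 to 1.43 for Angptl4 and -0.96 to 0.34 for Irs2. Liver against the other organs ran from -0.11 to 0.28 for Pdk4 and -0.14 to 0.23 for Angptl4 in XR-seq TS, and from -0.49 to 0.074 for Acadm and -0.83 to 0.42 for Pdk4 in Damage-seq TS. The Damage-seq strand ratio in lung ran from -0.12 to 0.067 for Ppara, -0.087 to 0.25 for Ppargc1a, -0.49 to 1.14 for Angptl4 and -0.72 to 0.70 for Igfbp1, and in spleen from -0.54 to 0.24 for Pdk4 and -0.34 to 0.74 for Igfbp1.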

Other observations

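Several liver genes of the pathway lists had large differences that did not pass the test, and are given here as values chosen after they were seen. Fgf21, a hormone that liver releases in fasting, had a log2 difference of 3.06 ± 0.58 (adjusted p = 0.132, edgeR), and Cebpb, a transcription factor of fasting and stress, 2.197 ± 0.47 (adjusted p = 0.174). Among PPAR targets the lipid droplet gene Cidec had 4.99 ± 0.94 (adjusted p = 0.123) and the acyl-CoA thioesterase Acot2 1.82 ± 0.39 (adjusted p = 0.188). Esrrg was lower, at -5.98 ± 0.92 (adjusted p = 0.0911), and Acaca, the rate-limiting enzyme of fatty acid synthesis, at -1.87 ± 0.55 (adjusted p = 0.341).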
